A study of Homo sapiens with 24 samples.

Results

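The proteasome is the barrel-shaped protease that degrades proteins tagged with ubiquitin. Its core particle, the 20S proteasome, is built of stacked rings of alpha and beta subunits, and the beta subunits PSMB5, PSMB6 and PSMB7 carry the cutting sites. The regulatory particle, 19S, binds, unfolds and feeds in the substrate through a ring of ATPases and a lid. In lymphoid cells, and in other cells exposed to interferon, PSMB8, PSMB9 and PSMB10 take the places of PSMB5, PSMB6 and PSMB7 to form the immunoproteasome, which cuts peptides for display on MHC class I molecules after their transport by TAP1 and TAP2. Proteasome inhibitors are used as drugs against mature B-cell malignancies.

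The genes described here are the 43, of 20046 genes with a probe of 1 symbol on the Illumina HumanHT-12 v4 BeadChip, whose symbol is PSMA, PSMB, PSMC, PSMD, PSME or PSMG followed by a number. They are 7 alpha subunits, 7 constitutive beta subunits, the 3 immunoproteasome subunits with the thymus-specific PSMB11, 5 ATPases and 9 other subunits of the 19S particle, 3 chaperones of 19S assembly (PSMD5, PSMD9 and PSMD10), 4 activators (PSME1 to PSME4) and 4 chaperones of 20S assembly (PSMG1 to PSMG4). PSMA7, PSMC5, PSMD7 and PSMD13 were not analysed here. Of the 43 genes, 25 had 1 probe and 18 had several, up to 4, of which the probe with the highest mean signal over the arrays was read. For 41 of them this signal was above that of the median probe, and the exceptions were the germ-cell subunit PSMA8 and PSMB11.

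RNA was measured in DoHH2 and TMD8, established lines of diffuse large B-cell lymphoma that the study assigns to its germinal center and its activated subtype. Cells were exposed for 8 h to 100 nM ITF-A, to 200 nM ITF-B or to DMSO, the solvent of both, and each compound had a DMSO set of its own. ITF-A and ITF-B are inhibitors of histone deacetylases, the enzymes that take acetyl groups off histones and other proteins. The 8 groups (2 lines, 2 compounds, treated or DMSO) held 3 arrays each, from 3 independent experiments, and every group is a single cell line, so that a difference between the lines is one between DoHH2 and TMD8 and not between subtypes. Whether the cells produced less of a transcript or lost it faster is not distinguished by these arrays.

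The deposited intensities ran from 70.3 to 26194.5 with array medians of 93.2 to 112. After normalization arrays of a group correlated at 0.9934 to 0.9961 over all probes, and the highest correlation between a treated and a DMSO array of a line was 0.971. The B-cell genes CD79A and CD79B were high in DMSO cells of both lines (11.30 to 12.89 on the log2 scale), and MS4A1 averaged 7.76 in DoHH2 and 9.66 in TMD8 cells. The T-cell genes CD3D, CD3E and CD2 and the B-cell gene PAX5 were not above the median probe. Of the myeloid, epithelial and fibroblast markers KRT18 and COL1A2 were not above it either. CD14, LYZ, CSF1R, EPCAM, KRT19, COL1A1 and DCN were above it, with averages of 5.92 to 7.06 in DMSO cells. All 5 markers of activated B cells averaged higher in TMD8 than in DoHH2 cells, the side of the study's subtype: IRF4 (11.22 and 10.40), CCND2 (12.23 and 11.69), FOXP1 (7.61 and 6.45), IL16 (7.59 and 7.14) and PTPN1 (12.002 and 10.05). Of 5 germinal center markers MME was lower in TMD8 cells (5.90 and 8.06), while BCL6 (9.16 and 5.84), LMO2 (9.62 and 6.56), SERPINA9 (8.20 and 7.62) and MYBL1 (6.38 and 6.06) were the higher ones there.

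More proteasome genes fell than rose under each compound in each line. A gene is called here where limma's moderated test gives an adjusted p under 0.05 over all 47231 probes, and changes are log2 differences, treated minus DMSO, with their standard errors (SE). In DoHH2 cells 3 of the 43 rose and 23 fell under ITF-A, where 36.2% of all genes were called, and 4 rose and 20 fell under ITF-B, where 35.8% were called. In TMD8 cells 6 rose and 20 fell under ITF-A, where 37.0% of all genes were called, and 7 rose and 16 fell under ITF-B, where 36.7% were called. The median changes under ITF-A and ITF-B were -0.22 and -0.16 in DoHH2 and -0.09 and -0.09 in TMD8 cells, against medians between -0.0034 and 0.0017 over all genes. Quantile normalization gives all arrays the same distribution, so that the medians over all genes are no independent reference.

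These counts stand on an array where bright probes are called more often. Among the 12688 genes brighter than the median probe 54.9% and 54.5% were called in DoHH2 (ITF-A, then ITF-B) and 55.5% and 55.1% in TMD8 cells, near the 60.5%, 55.8%, 60.5% and 53.5% of the proteasome genes. The share of changed genes was thus near that of genes above the median probe. The median proteasome gene had a mean signal of 10.26 and stood at percentile 93.98 among genes. The brighter genes are thus dimmer as a set and match the proteasome genes in signal only in part. Falls alone made up 26.3%, 26.0%, 27.2% and 26.7% of the brighter genes and 17.2%, 17.0%, 17.8% and 17.4% of all genes, below their share among the proteasome genes. With the arrays scaled to a common median in place of quantile normalization, 0 proteasome genes rose and 29 fell under ITF-A in DoHH2 cells, and 0 rose and 30 fell under ITF-B. In TMD8 cells 4 then rose and 17 fell under ITF-A, and 9 rose and 11 fell under ITF-B. The median changes of the proteasome genes were then -0.40 and -0.36 in DoHH2 and -0.13 and 0.0039 in TMD8 cells. The shares of all and of the brighter genes called under this scaling were not computed. The counts under median scaling thus have no background share beside them.

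Of the 43 genes 10 fell in all 4 comparisons: PSMB10, PSMB8, PSMB5, PSMG4, PSMB6, PSMC3, PSMA1, PSMD5, PSMA4 and PSMC1. Of all genes 9.92% and of the brighter genes 15.6% fell in all 4. The 19S subunit PSMD2 was the 1 gene that rose in all 4, beside 11.2% of all and 17.5% of the brighter genes. Of these calls that of PSMD5 under ITF-A in DoHH2 cells was lost without ITF-A experiment 1 (-0.20), and that of PSMC1 under ITF-B in TMD8 cells without DMSO experiment 3 (-0.17) and with median scaling (-0.09). A second probe of PSMC1 was called in none of the 4. The treated and the DMSO arrays did not overlap for 27 genes under ITF-A and 31 under ITF-B in DoHH2 cells, where the shares of all genes were 44.4% and 44.8% and those of the brighter genes 61.9% and 62.9%. In TMD8 cells they did not overlap for 27 genes under ITF-A and 28 under ITF-B, beside 44.9% and 43.7% of all and 62.5% and 60.4% of the brighter genes. PSMB1, PSMB4, PSMB11, PSMC2, PSMD1, PSMD3, PSMD4 and PSMD12 passed the test in none of the 4 comparisons, with changes between -0.16 and 0.22, beside 48.3% of all and 25.1% of the brighter genes.

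**Figure D1:**
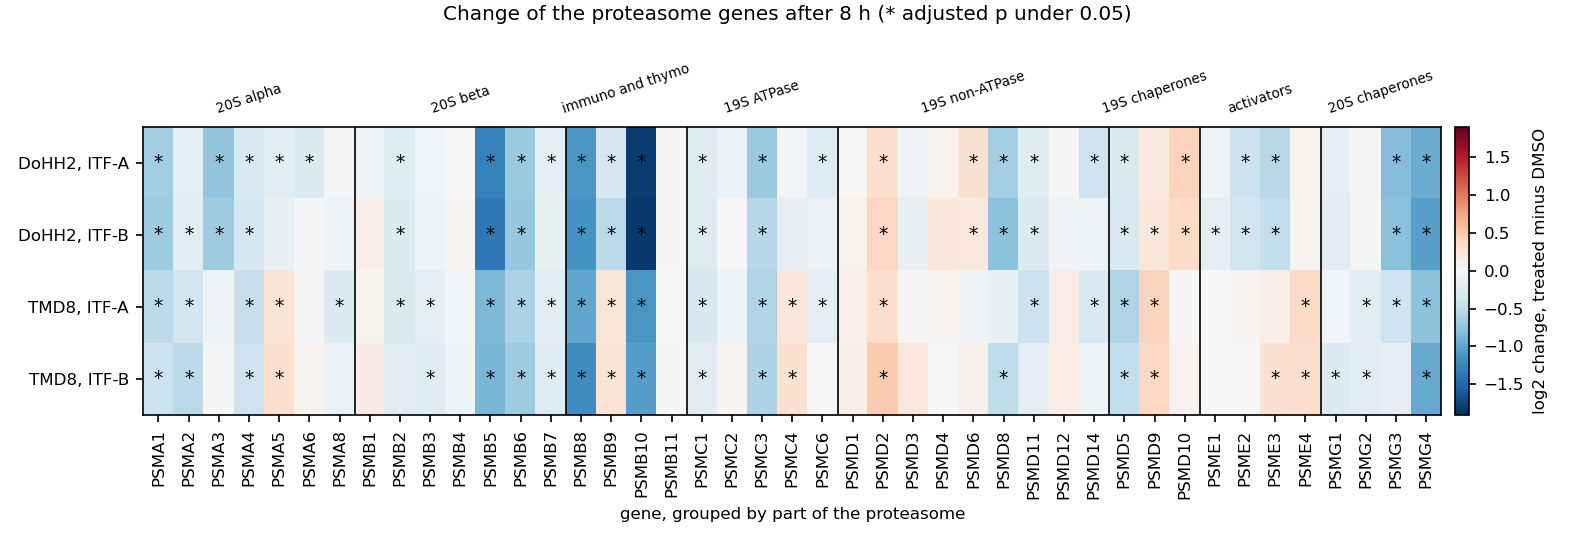
Log2 change, treated minus DMSO, of the 43 proteasome genes (columns, grouped by part of the complex) for each line and compound (rows), with blue for lower and red for higher in treated cells and a star where the adjusted p was under 0.05. PSMB10, PSMB8, PSMB5 and PSMG4 are the darkest blue columns, and PSMD2 is red in all 4 rows.

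Among the 43 genes the largest falls were those of the catalytic subunits PSMB10, PSMB5 and PSMB8, from both the immunoproteasome and the constitutive form. PSMB10, the immunoproteasome subunit with trypsin-like activity, read 10.25, 10.31 and 10.25 under ITF-A against 12.01, 12.03 and 12.17 under DMSO in DoHH2 cells (log2 intensity, experiments 1 to 3). Under ITF-B it read 10.41, 10.20 and 10.16 against 12.12, 12.11 and 12.05 under DMSO. These are falls to 0.287 and 0.280 of the DMSO level (log2 change -1.80 and -1.84, SE 0.07 each), with every treated array far below every DMSO array. In TMD8 cells PSMB10 read 11.27, 11.38 and 11.41 under ITF-A against 12.46, 12.44 and 12.47 under DMSO. Under ITF-B it read 11.32, 11.24 and 11.13 against 12.31, 12.35 and 12.15 under DMSO. The changes of -1.10 and -1.04 were again free of overlap.

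PSMB8, which takes the place of PSMB5 in the immunoproteasome, read 8.99, 8.88 and 8.79 under ITF-A against 9.87, 10.12 and 9.999 under DMSO in DoHH2 cells, and 9.07, 8.86 and 8.77 under ITF-B against 9.99, 9.99 and 10.11 under DMSO. PSMB8 in TMD8 cells read 8.87, 8.83 and 8.80 under ITF-A against 9.90, 9.76 and 9.81 under DMSO, and 8.89, 8.59 and 8.63 under ITF-B against 9.86, 9.91 and 9.87 under DMSO. All treated arrays lay below all DMSO arrays of their line. The changes were -1.11 and -1.13 in DoHH2 and -0.99 and -1.18 in TMD8 cells (SE 0.08 each). The next brightest probes of PSMB8 fell as well, by 1.26, 1.16, 1.04 and 1.03 for the one and by 0.79, 0.97, 0.87 and 1.06 for the other, in the same order, while its dimmest probe, near the median probe in signal, had changes of -0.29 to -0.09.

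PSMB9, the third immunoproteasome subunit, moved against PSMB8 and PSMB10 in TMD8 cells. In DoHH2 cells it read 8.34, 8.17 and 8.36 under ITF-A against 8.64, 8.65 and 8.56 under DMSO, and 8.32, 8.08 and 8.25 under ITF-B against 8.64, 8.85 and 8.69 under DMSO. It fell there by 0.33 and 0.51 on the log2 scale (SE 0.08 each), without overlap. PSMB9 in TMD8 cells read 8.15, 7.95 and 7.90 under ITF-A against 7.98, 7.57 and 7.74 under DMSO, and 8.18, 7.87 and 7.92 under ITF-B against 7.83, 7.62 and 7.74 under DMSO. The ITF-A arrays overlapped the DMSO arrays, although each was the higher one within its experiment, and the ITF-B arrays did not.

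The rises of PSMB9 in TMD8 cells, 0.23 and 0.26 (adjusted p = 0.031 and 0.015), were weak calls. The call under ITF-A was lost without any 1 of 4 arrays (ITF-A experiments 1 and 2, DMSO experiments 2 and 3), with changes of 0.16 to 0.24. That under ITF-B was lost without ITF-B experiment 1 or DMSO experiment 2, with changes of 0.20 to 0.23. A second, dimmer probe of PSMB9 had changes of 0.12 and 0.05 in TMD8 cells, neither of them called, and of -0.30 (called) and -0.04 (not called) in DoHH2 cells. Median scaling gave the probe read 0.24 (not called) and 0.33 (called) in TMD8 cells.

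PSMB5, the constitutive subunit with chymotrypsin-like activity and the main target of the proteasome inhibitors in use, read 9.43, 9.40 and 9.37 under ITF-A against 10.65, 10.77 and 10.62 under DMSO in DoHH2 cells. Under ITF-B it read 9.36, 9.43 and 9.38 against 10.83, 10.69 and 10.73 under DMSO. PSMB5 in TMD8 cells read 10.07, 9.96 and 10.10 under ITF-A against 10.87, 10.87 and 10.96 under DMSO, and 10.11, 10.02 and 9.89 under ITF-B against 10.91, 10.76 and 10.96 under DMSO. No treated array reached a DMSO array of its line. PSMB5 fell to 0.412 and 0.390 of the DMSO level in DoHH2 cells and to 0.552 and 0.548 in TMD8 cells (log2 change -1.28, -1.36, -0.86 and -0.87, SE 0.07 each).

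PSMB6, the caspase-like subunit that PSMB9 replaces, read 11.37, 11.39 and 11.33 under ITF-A against 12.10, 12.05 and 12.05 under DMSO in DoHH2 cells, and 11.37, 11.28 and 11.29 under ITF-B against 11.96, 12.03 and 12.09 under DMSO. PSMB6 in TMD8 cells read 11.24, 11.33 and 11.25 under ITF-A against 11.91, 11.97 and 11.74 under DMSO, and 11.23, 11.19 and 11.16 under ITF-B against 11.95, 11.81 and 11.85 under DMSO. It fell by 0.70 and 0.71 in DoHH2 and by 0.61 and 0.68 in TMD8 cells (SE 0.07 each), all without overlap.

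PSMB7, the trypsin-like subunit that PSMB10 replaces, had small changes. In DoHH2 cells it read 11.36, 11.35 and 11.44 under ITF-A against 11.50, 11.65 and 11.57 under DMSO, and 11.43, 11.44 and 11.52 under ITF-B against 11.56, 11.56 and 11.69 under DMSO. PSMB7 in TMD8 cells read 11.13, 11.23 and 11.10 under ITF-A against 11.37, 11.27 and 11.47 under DMSO, and 11.20, 11.17 and 11.18 under ITF-B against 11.44, 11.43 and 11.41 under DMSO. The arrays did not overlap in any of the 4 sets. The changes were -0.19 and -0.14 in DoHH2 and -0.22 and -0.24 in TMD8 cells (SE 0.07 each), with adjusted p = 0.031, 0.14, 0.011 and 0.0042. The ITF-A falls of PSMB7 lost their call without 1 of 3 arrays in DoHH2 cells (ITF-A experiments 1 and 2, DMSO experiment 2), with changes of -0.18 to -0.14, and without 1 of 2 in TMD8 cells (ITF-A and DMSO experiment 3), with changes of -0.18 to -0.17.

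PSMB10, PSMB8, PSMB5 and PSMB6, with the assembly chaperone PSMG4, also fell within each of the 2 BeadChips taken alone. All 40 such changes lay between -1.92 and -0.57. Chip 1 holds 1 array a group of DoHH2 cells and chip 2 holds 1 array a group of TMD8 cells. The changes there are differences between single arrays. The thymus subunit PSMB11 was not above the median probe, and its changes lay between -0.03 and 0.02.

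**Figure D2:**
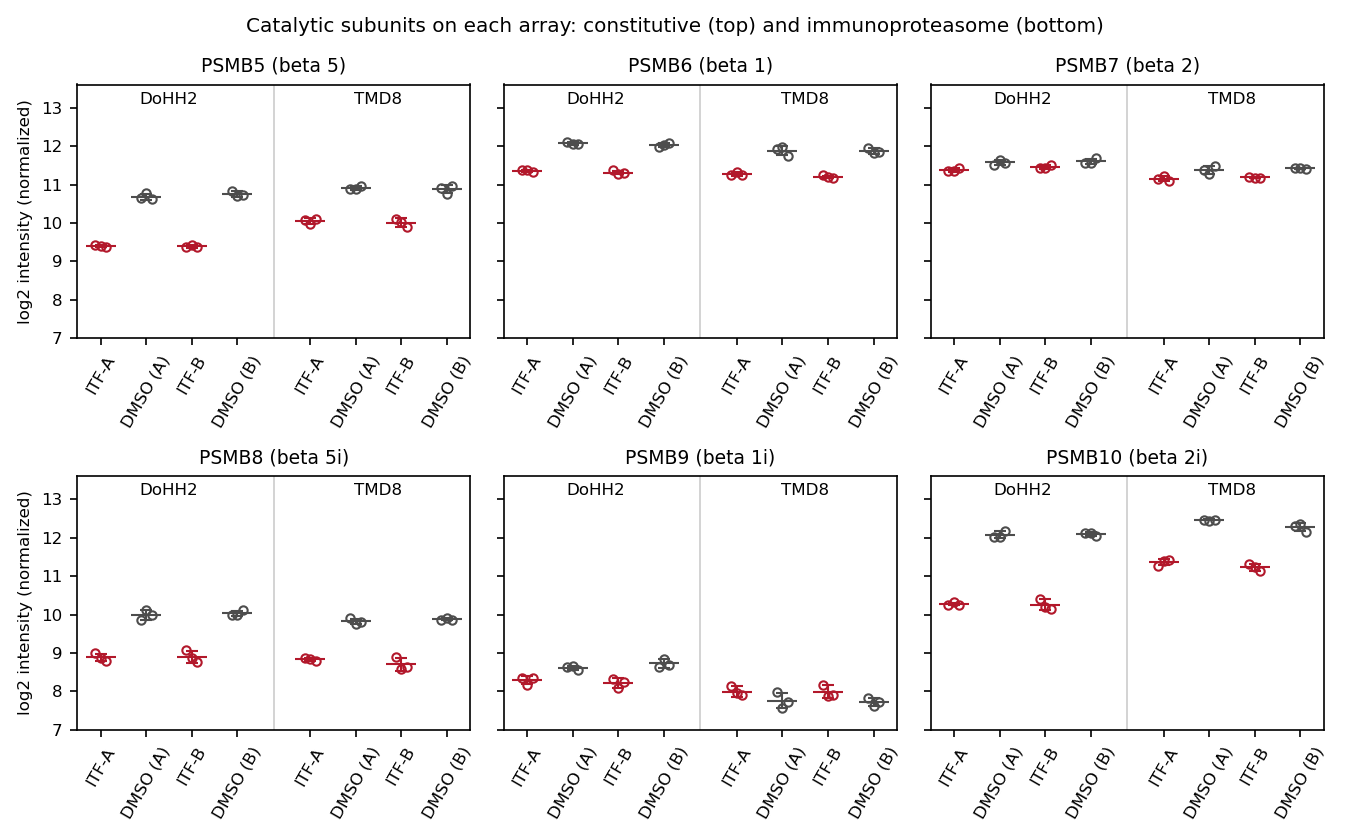
Log2 intensity (y axis) of the constitutive catalytic subunits (top row) and of the immunoproteasome subunits that replace them (bottom row) on each of 24 arrays, with treated arrays in red, each set to the left of its DMSO set in grey, and bars for mean and SD. PSMB5, PSMB6, PSMB8 and PSMB10 are lower in all treated sets, PSMB7 by a small step, and PSMB9 is lower in DoHH2 cells and slightly higher in TMD8 cells.

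Interferon regulatory factors bind a promoter element, the ISRE, whose core is a direct repeat of GAAA with 2 bases of any kind between (searched on both strands). In the RefSeq promoter windows of GRCh38.p14, 250 bases before to 50 after an annotated start, 7 of the 38 proteasome genes with a window hold this core (18.4%), beside 4.38% of 27305 genes. Because they include PSMB10 and PSMB8, they are printed with 10 or fewer bases on either side, together with the peptide transporters TAP1 and TAP2. PSMB5, also among the largest falls, holds no match in its windows, and PSMB6 has no window. The core is in capitals (on either strand, so that some read as its reverse complement):
PSMB10, chr16:67936852-67936881, strand -: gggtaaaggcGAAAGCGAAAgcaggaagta
PSMB8, chr6:32844032-32844061, strand -: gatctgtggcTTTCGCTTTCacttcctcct
PSME1, chr14:24136189-24136218, strand +: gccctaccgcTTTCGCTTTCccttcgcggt
PSME2, chr14:24146619-24146648, strand -: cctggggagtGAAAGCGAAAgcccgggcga
PSMG4, chr6:3258904-3258933, strand +: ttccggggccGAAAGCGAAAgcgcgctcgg
PSMA4, chr15:78540155-78540184, strand +: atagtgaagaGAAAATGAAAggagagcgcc
PSMB4, chr1:151399495-151399524, strand +: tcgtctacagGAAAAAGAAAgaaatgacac
TAP1, chr6:32853816-32853845, strand -: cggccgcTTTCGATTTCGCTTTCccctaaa
TAP2, chr6:32838778-32838807, strand -: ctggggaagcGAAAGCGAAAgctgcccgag

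Counted on the gene's strand, with -1 the base before the start, the core spans positions -21 to -12 in PSMB10, -28 to -19 in PSME2, -33 to -24 in PSMG4, -68 to -59 in PSMB4 and -240 to -231 in PSMA4. It spans the start in PSMB8 (-4 to 6), lies after it in PSME1 (6 to 15), and 2 overlapping matches form the capitals of TAP1. Each position counts from the annotated start of its window. In PSMB8 (window chr6:32843998-32844297) and PSMG4 (window chr6:3258697-3258996) that start lies inside the gene. The outermost starts of these genes are at 32844679 and 3254404. PSMB10, PSMB8, PSME1, PSME2 and PSMG4 share the same 10 bases, GAAAGCGAAA or their reverse complement, which 0.125% of all genes with a window hold, a form looked up because it was the commonest among the matches. The expression of these genes was mixed. PSMB10, PSMB8, PSMG4 and PSMA4 fell in all 4 comparisons, PSME2 fell in DoHH2 cells with both compounds, PSME1 fell in DoHH2 cells under ITF-B, and PSMB4 passed the test in none of the 4. PSMB5, PSMC3, PSMA1, PSMD5 and PSMC1 fell in all 4 comparisons without such a match in their windows. A match is a description of the letters and not a binding site.

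For PSMB10, the gene with the largest fall, and for PSMB9, which moved in opposite directions in the lines, the 250 bases before the annotated start are printed, with the match of the core in capitals where there is one:
PSMB10, chr16:67936851-67937100, strand -: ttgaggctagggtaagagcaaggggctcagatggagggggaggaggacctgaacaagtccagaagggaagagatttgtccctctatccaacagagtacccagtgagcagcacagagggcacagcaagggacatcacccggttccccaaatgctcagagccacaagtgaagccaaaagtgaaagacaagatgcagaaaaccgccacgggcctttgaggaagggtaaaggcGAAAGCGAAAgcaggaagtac
PSMB9, chr6:32853942-32854191, strand +: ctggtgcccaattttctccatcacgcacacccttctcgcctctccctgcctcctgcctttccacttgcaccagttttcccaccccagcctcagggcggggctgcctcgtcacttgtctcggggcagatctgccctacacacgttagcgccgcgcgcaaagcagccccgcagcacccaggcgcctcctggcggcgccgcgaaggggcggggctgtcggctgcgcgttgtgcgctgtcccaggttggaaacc

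The PSMB9 window holds no match to the core. The start of PSMB9 lies 487 bases from that of TAP1, which is read in the opposite direction, on chromosome 6. The matches of TAP1 printed above (within chr6:32853816-32853845) lie between the starts of TAP1 (32853704) and PSMB9 (32854192). They fall outside the PSMB9 window (chr6:32853942-32854241), so that the lack of a match holds for that window alone. TAP1 fell in all 4 comparisons, also in TMD8 cells, where PSMB9 rose: by 0.87 under ITF-A and 0.82 under ITF-B in DoHH2, and by 1.38 and 1.29 in TMD8 cells (SE 0.08 each).

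Of the 14 alpha and constitutive beta genes of the 20S core, PSMB5, PSMB6 and PSMB7 among them, 0 rose and 9 fell under ITF-A and 0 rose and 7 fell under ITF-B in DoHH2 cells, with medians of -0.23 and -0.17. In TMD8 cells 1 rose and 9 fell under ITF-A and 1 rose and 7 fell under ITF-B, with medians of -0.24 and -0.22. The shares called, 64.3% and 50% in DoHH2 and 71.4% and 57.1% in TMD8 cells, stand beside the 54.5% to 55.5% of the brighter genes, of which 26.0% to 27.2% fell. PSMA1, an alpha-ring subunit, had changes of -0.66, -0.68, -0.49 and -0.41, and PSMA4 had -0.29, -0.33, -0.44 and -0.39 (DoHH2 ITF-A and ITF-B, TMD8 ITF-A and ITF-B). The second probe of PSMA1 fell by 0.98, 0.88, 0.63 and 0.67, and its dimmest, near the median probe, had changes of -0.14 to -0.02, none of them called. PSMA3 fell by 0.74 and 0.67 in DoHH2 cells, while its changes in TMD8 cells, -0.09 and -0.03, were not called. Its second probe had -0.24 (called) and -0.10 (not called) in TMD8 cells. PSMA2 fell in 3 comparisons, by 0.37 and 0.52 in TMD8 cells and by 0.21 under ITF-B in DoHH2 cells, where the call was lost without ITF-B experiment 1 or 2 or DMSO experiment 1 or 2 (-0.22 to -0.15).

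PSMA5 went in opposite directions, with -0.22 (called) and -0.14 (not called) in DoHH2 cells and rises of 0.26 and 0.31 in TMD8 cells. Its call in DoHH2 cells was lost without ITF-A experiment 3 or DMSO experiment 2 (-0.20 to -0.16), and that under ITF-A in TMD8 cells without DMSO experiment 1 (0.20). PSMA6 fell under ITF-A in DoHH2 cells (-0.26, lost at -0.19 without DMSO experiment 1), and its second probe instead had a rise of 0.25 with each compound in TMD8 cells, where the probe read had changes of -0.03 and 0.07. Among the beta subunits without catalytic activity PSMB3 fell in TMD8 cells (-0.18 and -0.23), the first call being lost without any 1 of 5 of its 6 arrays, all but DMSO experiment 3 (-0.20 to -0.16), and the second without DMSO experiment 3 (-0.19). The first was also lost with the replicate block (adjusted p = 0.053), while PSMB1 and PSMB4 had changes between -0.09 and 0.16, none of them called. PSMA8 was not above the median probe, and its fall of 0.26 under ITF-A in TMD8 cells was lost without ITF-A experiment 3 or DMSO experiment 2 (-0.20 to -0.17).

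PSMB2, another structural beta subunit, read 10.64, 10.89 and 10.88 under ITF-A against 10.85, 11.23 and 11.04 under DMSO in DoHH2 cells, and 10.95, 10.96 and 10.96 under ITF-B against 11.23, 11.17 and 11.26 under DMSO. PSMB2 in TMD8 cells read 9.72, 9.69 and 9.66 under ITF-A against 9.87, 9.97 and 10.06 under DMSO, and 9.86, 9.70 and 9.57 under ITF-B against 9.80, 9.96 and 9.99 under DMSO. The arrays overlapped under ITF-A in DoHH2 cells and under ITF-B in TMD8 cells. The changes were -0.24, -0.26, -0.28 and -0.21 (SE 0.08 each), of which the first 3 were called, and each of these was lost without 1 array or another (-0.25 to -0.13 over the 5 such settings: ITF-A experiment 1 and DMSO experiments 2 and 3 of the ITF-A set, and DMSO experiment 3 of the ITF-B set, in DoHH2 cells, and DMSO experiment 3 of the ITF-A set in TMD8 cells).

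Of the 4 chaperones that assemble the 20S core 2 fell under each compound in DoHH2 cells and 3 in TMD8 cells, and 0 rose. These shares called, 50% in DoHH2 and 75% in TMD8 cells, stand beside 54.5% to 55.5% of the brighter genes, of which 26.0% to 27.2% fell. PSMG4, which helps to build the alpha ring, averaged 8.18 ± 0.06 under ITF-A and 9.12 ± 0.09 under DMSO in DoHH2 cells, and 8.15 ± 0.04 under ITF-B and 9.19 ± 0.12 under DMSO (SD, n = 3). In TMD8 cells it averaged 8.58 ± 0.04 under ITF-A and 9.36 ± 0.09 under DMSO, and 8.53 ± 0.17 under ITF-B and 9.48 ± 0.04 under DMSO (SD, n = 3). Treated and DMSO arrays did not overlap, and the changes were -0.94, -1.04, -0.78 and -0.95. A second probe of PSMG4 with a mean signal of 6.26, near that of the median probe at 6.16, showed changes of -0.10 to 0.04. PSMG3, the partner of PSMG4, fell by 0.82 and 0.79 in DoHH2 cells and by 0.39 under ITF-A in TMD8 cells. PSMG1 and PSMG2, the other chaperone pair, had changes between -0.25 and -0.04, of which those of PSMG2 with both compounds and of PSMG1 under ITF-B in TMD8 cells were called, none of the 3 with median scaling. A second probe of PSMG1 had -0.03 there (not called). Without ITF-B experiment 1 or DMSO experiment 3 PSMG1 lost this call (-0.18 to -0.17), and those of PSMG2 were lost without any 1 of 4 arrays under ITF-A (-0.21 to -0.17; ITF-A experiments 2 and 3, DMSO experiments 1 and 3) and any 1 of 15 under ITF-B (-0.22 to -0.11; all ITF-B experiments, DMSO experiments 2 and 3 and 10 arrays of the other groups, which share the estimate of spread), the second of them also with the replicate block (adjusted p = 0.056).

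The 19S regulatory particle was split. Its shares called, 57.1% and 42.9% in DoHH2 and 50% and 35.7% in TMD8 cells, were near or below those of the brighter genes. Of its 14 genes 2 rose and 6 fell under ITF-A and 2 rose and 4 fell under ITF-B in DoHH2 cells, and 2 rose and 5 fell under ITF-A and 2 rose and 3 fell under ITF-B in TMD8 cells. The medians, -0.11, -0.11, -0.08 and 0.02, lay nearer to 0 than those of the core, a difference that was not tested. Of the ATPases PSMC3 had the largest falls, -0.70, -0.54, -0.57 and -0.58, followed by PSMC1 with -0.23, -0.24, -0.31 and -0.20. The second probe of PSMC1, with a mean signal of 10.93, had -0.20, -0.24, -0.05 and -0.11, none of them called (limma, adjusted p = 0.13, 0.054, 0.80 and 0.51). PSMC4 rose in TMD8 cells (0.22 and 0.28), calls that were lost without ITF-A experiment 1 or 3 or DMSO experiment 2 of the ITF-A set (0.18 to 0.21), and without ITF-B or DMSO experiment 1 of the ITF-B set (0.22 to 0.23). With median scaling the first was 0.16 and not called, and the other probes of PSMC4 had 0.18 and 0.25 under ITF-A, not called, and 0.35 (called) and 0.01 (not called) under ITF-B. PSMC6 fell under ITF-A in both lines, by 0.25 in DoHH2 (lost at -0.19 without DMSO experiment 1) and by 0.18 in TMD8 cells (lost without any 1 of 19 arrays, all 6 of its own among them, at -0.20 to -0.15, and with the replicate block, adjusted p = 0.057), neither of them called on its second probe (-0.25 and -0.18). PSMC2 passed in no comparison.

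Among the other 19S subunits PSMD8 fell by 0.64 and 0.79 in DoHH2 cells and by 0.48 under ITF-B in TMD8 cells. PSMD11 fell by 0.41 under ITF-A in TMD8 cells and by 0.23 and 0.27 in DoHH2 cells, where its calls were lost without ITF-A experiment 1 or 3 or DMSO experiment 1 (-0.25 to -0.16), and without ITF-B experiment 2 or DMSO experiment 1 (-0.24 to -0.21). The deubiquitinase PSMD14 fell under ITF-A in both lines, by 0.40 in DoHH2 and by 0.29 in TMD8 cells (lost at -0.19 without ITF-A experiment 2). PSMD6 rose in DoHH2 cells (0.29 and 0.20), which with median scaling became 0.07 and -0.0095, and the call under ITF-B was lost without any 1 of 5 of its 6 arrays, all but DMSO experiment 2 (0.17 to 0.21). Its second probe had 0.18 (not called) and 0.34 (called). PSMD1, PSMD3, PSMD4 and PSMD12 had no call.

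PSMD2, the large scaffold subunit at the base of the 19S particle, read 9.95, 10.17 and 10.13 under ITF-A against 9.75, 9.73 and 9.82 under DMSO in DoHH2 cells, and 10.16, 9.98 and 10.24 under ITF-B against 9.79, 9.65 and 9.77 under DMSO. PSMD2 in TMD8 cells read 10.32, 10.60 and 10.57 under ITF-A against 10.07, 10.14 and 10.28 under DMSO, and 10.49, 10.63 and 10.51 under ITF-B against 10.05, 10.07 and 10.01 under DMSO. The treated arrays were the higher ones in all 4 sets, without overlap. The rises were 0.31, 0.39, 0.34 and 0.50 (SE 0.07 each). With median scaling they were 0.09 and 0.14 in DoHH2 cells, no longer called, and 0.32 and 0.57 in TMD8 cells.

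The chaperones of 19S assembly, which hold the ATPases until the base is complete, did not move together. PSMD5 fell in all 4 comparisons (-0.27, -0.29, -0.57 and -0.47). PSMD9 read 6.82, 6.84 and 6.91 under ITF-A against 6.65, 6.80 and 6.56 under DMSO in DoHH2 cells, and 6.88, 6.78 and 6.75 under ITF-B against 6.62, 6.63 and 6.52 under DMSO. PSMD9 in TMD8 cells read 7.31, 7.02 and 7.28 under ITF-A against 6.91, 6.73 and 6.68 under DMSO, and 7.28, 7.18 and 7.17 under ITF-B against 6.80, 6.71 and 6.92 under DMSO. No set overlapped. The changes of PSMD9 were 0.19 (not called) and 0.21 in DoHH2 and 0.43 and 0.40 in TMD8 cells (SE 0.07 each). The call under ITF-B in DoHH2 cells was lost without any 1 of 5 of its 6 arrays (all but ITF-B experiment 2), with changes of 0.19 to 0.22.

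PSMD10, also called gankyrin, read 10.31, 10.19 and 10.14 under ITF-A against 9.76, 9.84 and 9.75 under DMSO in DoHH2 cells, and 10.21, 10.04 and 10.25 under ITF-B against 9.85, 9.74 and 9.75 under DMSO. PSMD10 in TMD8 cells read 9.90, 9.79 and 9.91 under ITF-A against 9.88, 9.86 and 9.77 under DMSO, and 9.97, 9.92 and 9.92 under ITF-B against 9.85, 9.95 and 9.82 under DMSO. The sets were apart in DoHH2 cells and overlapped in TMD8 cells. PSMD10 rose by 0.43 and 0.38 in DoHH2 cells (SE 0.07 each), and had 0.03 and 0.06 in TMD8 cells. With median scaling its changes in DoHH2 cells were 0.22 and 0.12 and were not called. Of 2 dimmer probes of PSMD10 one had smaller rises there, 0.18 and 0.24, and the other had 0.18 and 0.11, not called.

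The activators that cap the 20S core in place of the 19S particle moved by line. PSME1 and PSME2 form the interferon-inducible PA28 cap, PSME3 the nuclear one and PSME4 is PA200. PSME1 read 12.39, 12.42 and 12.39 under ITF-A against 12.53, 12.57 and 12.39 under DMSO in DoHH2 cells, and 12.40, 12.42 and 12.43 under ITF-B against 12.69, 12.57 and 12.51 under DMSO. PSME1 in TMD8 cells read 12.07, 12.04 and 11.96 under ITF-A against 12.05, 11.99 and 12.01 under DMSO, and 12.04, 11.96 and 11.99 under ITF-B against 12.02, 11.96 and 12.01 under DMSO. Only the ITF-B set of DoHH2 cells stood apart from its DMSO set, and there PSME1 fell by 0.17 (SE 0.06), a call lost without ITF-B experiment 1 or 2 or DMSO experiment 1 (-0.16 to -0.13), and with the experiment as a replicate block (adjusted p = 0.051). Its changes elsewhere lay between -0.09 and 0.01. A second probe with a mean signal of 6.56 fell by 0.41 with each compound in DoHH2 cells.

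PSME2 read 11.85, 11.84 and 11.73 under ITF-A against 12.26, 12.18 and 12.20 under DMSO in DoHH2 cells, and 11.66, 11.79 and 11.85 under ITF-B against 12.21, 12.21 and 12.001 under DMSO. PSME2 in TMD8 cells read 11.41, 11.44 and 11.58 under ITF-A against 11.46, 11.31 and 11.51 under DMSO, and 11.51, 11.61 and 11.41 under ITF-B against 11.53, 11.46 and 11.54 under DMSO. It fell in DoHH2 cells by 0.41 and 0.37 (SE 0.07 each), without overlap. The sets of TMD8 cells overlapped, with changes of 0.04 and 0.00.

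PSME3 read 9.09, 9.22 and 9.21 under ITF-A against 9.75, 9.69 and 9.68 under DMSO in DoHH2 cells, and 9.29, 9.25 and 9.31 under ITF-B against 9.83, 9.73 and 9.70 under DMSO. PSME3 in TMD8 cells read 9.24, 9.20 and 9.18 under ITF-A against 9.16, 9.03 and 9.06 under DMSO, and 9.31, 9.46 and 9.41 under ITF-B against 9.11, 9.11 and 9.11 under DMSO. Treated arrays were the lower ones in DoHH2 and the higher ones in TMD8 cells, without overlap. PSME3 fell by 0.53 and 0.47 in DoHH2 cells, and in TMD8 cells it had 0.12 (not called) under ITF-A and rose by 0.28 under ITF-B (SE 0.07 each). Its second probe gave -0.49, -0.41, 0.10 and 0.35.

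PSME4 read 10.88, 10.85 and 10.91 under ITF-A against 10.72, 10.89 and 10.84 under DMSO in DoHH2 cells, and 10.87, 10.85 and 10.95 under ITF-B against 10.86, 10.79 and 10.88 under DMSO, sets that overlapped. PSME4 in TMD8 cells read 10.46, 10.47 and 10.58 under ITF-A against 10.08, 10.13 and 10.23 under DMSO, and 10.33, 10.44 and 10.55 under ITF-B against 10.16, 10.06 and 10.14 under DMSO, without overlap. It rose there by 0.36 and 0.32 (SE 0.07 each).

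Taking the immunoproteasome subunits with their PA28 cap as 1 group of 5 genes, 0 rose and 4 fell under ITF-A and 0 rose and 5 fell under ITF-B in DoHH2 cells, with medians of -0.41 and -0.51. In TMD8 cells 1 rose and 2 fell with each compound, with medians of 0.01 and 0.00. In TMD8 cells the falls were those of PSMB8 and PSMB10 alone. The shares called were 80% and 100% in DoHH2 cells and 60% with each compound in TMD8 cells. They stand beside 54.5% to 55.5% of the brighter genes, of which 26.0% to 27.2% fell, and 35.8% to 37.0% of all genes. The share in TMD8 cells was near that of the brighter genes.

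The difference between the lines was tested as the change in TMD8 minus the change in DoHH2 cells, with each line set against its own DMSO arrays. Under ITF-A it was called for 13 of the 43 genes, 10 above and 3 below 0, beside 22.4% of all and 33.8% of the brighter genes. Under ITF-B it was called for 13 as well, 11 above and 2 below 0, beside 22.5% of all and 34.1% of the brighter genes. The share of 30.2% lay between those of all and of the brighter genes, and most called values were above 0, as were those of 11.4% and 11.8% of all genes (17.0% and 17.6% of the brighter ones). Under median scaling all called differences were above 0, 12 under ITF-A and 21 under ITF-B. The shares just given are those with quantile normalization, and none was computed under median scaling.

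PSMB10 fell less in TMD8 than in DoHH2 cells, by 0.69 under ITF-A and 0.80 under ITF-B on the log2 scale (SE 0.10 each, adjusted p = 1.7e-06 and 1.1e-07). It differed within each BeadChip too, by 0.87 and 0.83 on chip 1 and by 0.54 and 0.82 on chip 2. On each chip 1 of the lines has 1 array a group, so that within-chip values rest in part on single arrays. PSME3 differed by 0.65 and 0.75 and PSMB9 by 0.56 and 0.77, both of them with falls in DoHH2 and higher values in TMD8 cells. For PSMB9 the value on chip 1 under ITF-A was 0.47 and the other 3 within-chip values were 0.56 to 0.90. Its second probe differed by 0.43 under ITF-A and 0.09 under ITF-B, the second not called. PSMB5 differed by 0.42 and 0.49, with within-chip values of 0.37 to 0.57. PSMB8, PSMB6 and PSMG4 were not called, with intervals (95%) for PSMB8 of -0.10 to 0.34 under ITF-A and -0.27 to 0.17 under ITF-B.

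Over the 43 genes the changes in TMD8 and DoHH2 cells correlated at 0.779 under ITF-A and 0.781 under ITF-B (Pearson; Spearman 0.667 and 0.669). These are correlations across genes, which are not independent replicates, and the lines share compound, experiment numbers and BeadChips.

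**Figure D3:**
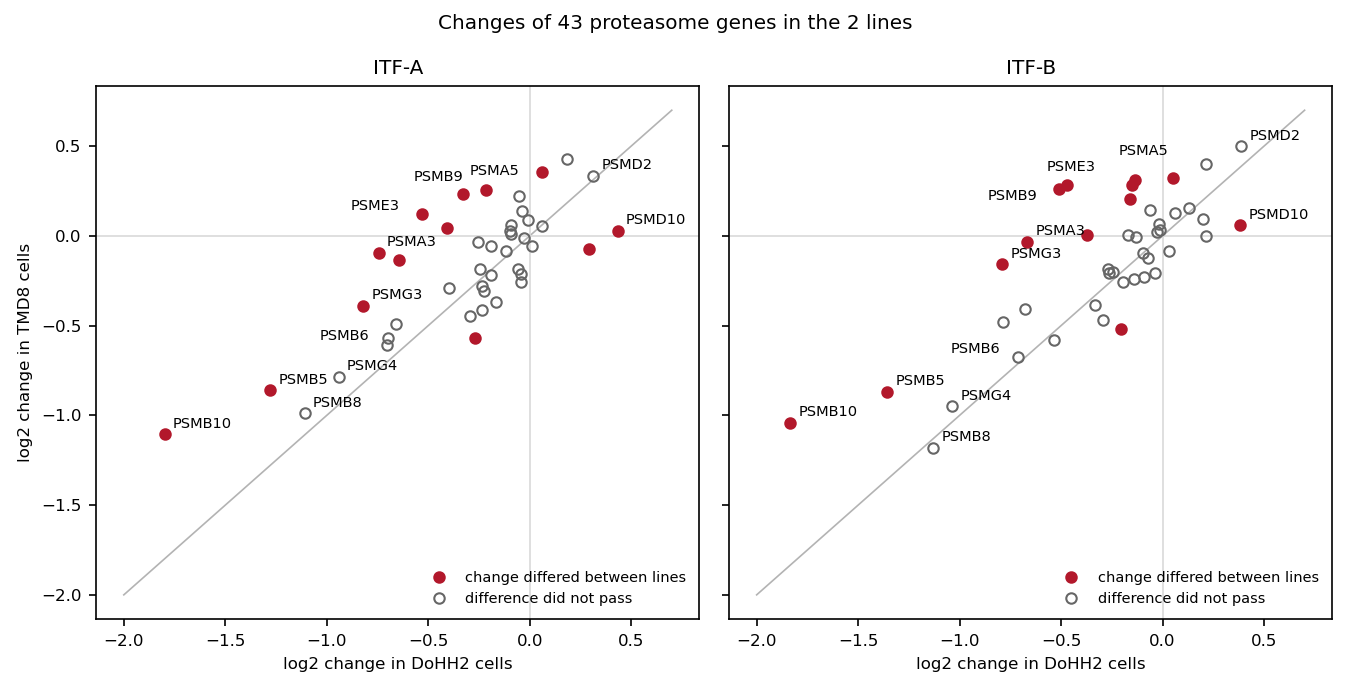
Log2 change in TMD8 cells (y axis) against that in DoHH2 cells (x axis) for the 43 proteasome genes, one panel per compound, with the line of equal change and filled red points where the difference between the lines was called. PSMB10 and PSMB5 lie above the line, PSMB8 and PSMG4 on or near it, and PSMB9, PSME3 and PSMA5 left of 0 on the x axis and above 0 on the y axis.

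The lines also differed in DMSO. Between DMSO cells (6 arrays each) 9 of the 43 genes were higher and 20 lower in TMD8 than in DoHH2 cells, beside 43.7% of all and 65.2% of the brighter genes called (22.6% and 33.6% lower), and the arrays did not overlap for 22, beside 34.3% of all and 52.4% of the brighter genes. Of the 14 core genes 1 was higher and 10 were lower in TMD8 cells, and all 4 activators were lower (-0.72 to -0.51). With median scaling 2 genes were higher, PSMC4 by 0.36 and PSMD8 by 0.24, and 32 were lower in TMD8 cells, counts for which no share of all genes was computed.

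PSMB2 differed most. It read 9.87, 9.97, 10.06, 9.80, 9.96 and 9.99 in DMSO-treated TMD8 cells, against 10.85, 11.23, 11.04, 11.23, 11.17 and 11.26 in DMSO-treated DoHH2 cells, so that its level in TMD8 cells was 0.436 of that in DoHH2 cells (log2 difference -1.20, SE 0.06). PSMB9 was lower by 0.88 in TMD8 cells, with 7.57 to 7.98 there against 8.56 to 8.85 in DoHH2 cells. PSME4 was lower by 0.72, with 10.06 to 10.23 in TMD8 against 10.72 to 10.89 in DoHH2 cells. None of these ranges overlapped. PSMC4, an ATPase, was higher by 0.62 and PSMD8 by 0.51 in TMD8 cells. PSMB10 and PSMB5 were higher by 0.29 and 0.19, which with median scaling became 0.03 and -0.11, and PSMB8 was not called (-0.14).

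**Figure D4:**
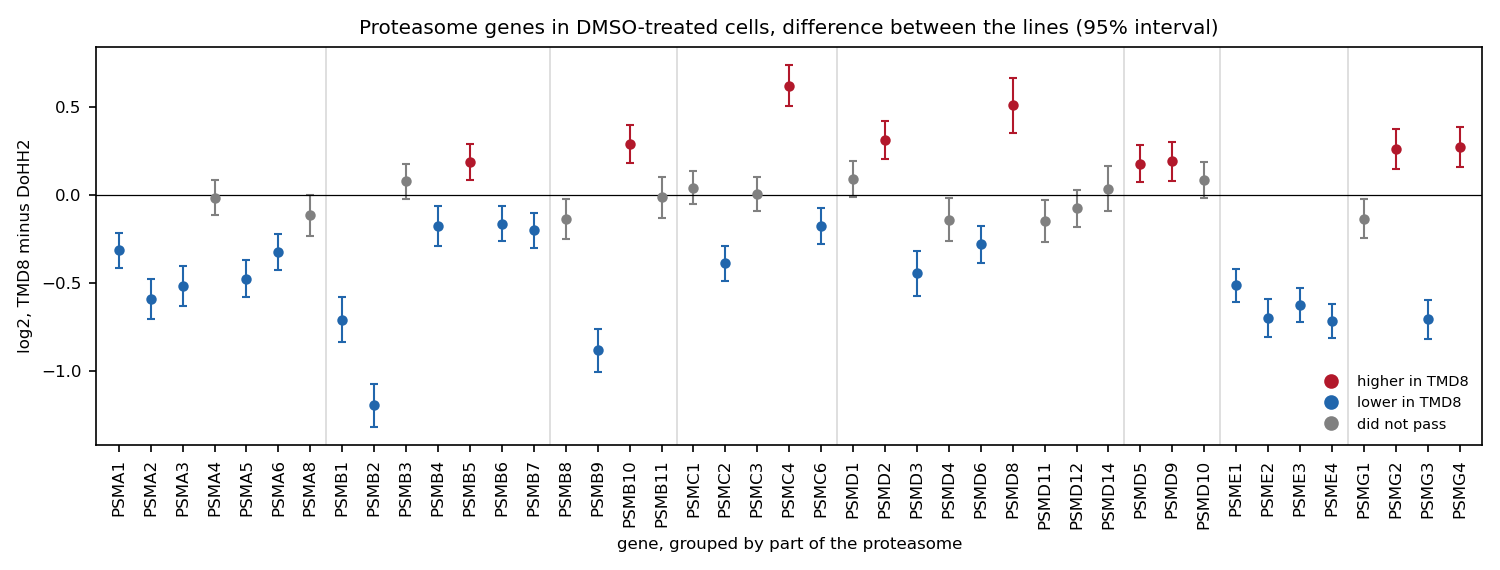
Log2 difference between DMSO-treated TMD8 and DoHH2 cells (y axis, TMD8 minus DoHH2) for each proteasome gene (x axis, grouped by part), with bars for the 95% interval, red where TMD8 was higher, blue where it was lower and grey where the test was not passed. PSMB2 is the lowest point at -1.20, and the activators PSME1 to PSME4 all lie below 0.

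ITF-A and ITF-B were used at different doses, 100 and 200 nM, and stand side by side here without a test of their difference. Both gave PSMB10 as the largest fall in DoHH2 cells (-1.80 under ITF-A, -1.84 under ITF-B). In TMD8 cells the largest fall was that of PSMB10 under ITF-A (-1.10) and that of PSMB8 under ITF-B (-1.18). The largest rise was that of PSMD10 under ITF-A (0.43) and of PSMD2 under ITF-B (0.39) in DoHH2 cells, and of PSMD9 under ITF-A (0.43) and PSMD2 under ITF-B (0.50) in TMD8 cells.

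Other genes of the pathway were described by lists. In a list of 16 further subunits, inhibitors, assembly factors and bound proteins 0 rose and 7 fell with each compound in DoHH2 cells, and 5 rose and 7 fell under ITF-A and 4 rose and 6 fell under ITF-B in TMD8 cells. The medians of the list were -0.20 and -0.19 in DoHH2 and -0.08 and -0.11 in TMD8 cells. The shares called, 43.8% with each compound in DoHH2 and 75% and 62.5% in TMD8 cells, lay below and above the 54.5% to 55.5% of the brighter genes. ECPAS, an adaptor that holds the 19S and 20S particles together, had changes of -1.73 and -2.05 in DoHH2 and of -1.36 and -1.22 in TMD8 cells (SE 0.07 each). UBQLN4, RAD23B and UBQLN2, shuttle proteins that carry ubiquitin-tagged substrates, fell in both lines, while UBQLN1, another shuttle protein and named after its values were seen, had -0.14 to -0.08 and no call. UBQLN4 had -0.83, -0.89, -0.65 and -0.67, RAD23B had -0.53, -0.64, -0.66 and -0.81, and UBQLN2 had -0.49, -0.54, -0.41 and -0.41 (DoHH2 ITF-A and ITF-B, TMD8 ITF-A and ITF-B). ADRM1, a ubiquitin receptor of the 19S particle named here after its values were seen, rose by 0.39 and 0.42 in TMD8 cells and had falls of 0.25 and 0.22 in DoHH2 cells, the second lost without ITF-B experiment 1 or DMSO experiment 3 (-0.21 to -0.16).

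In a list of 12 interferon and antigen processing genes 1 rose and 6 fell under ITF-A and 1 rose and 7 fell under ITF-B in DoHH2 cells, and 1 rose and 5 fell under ITF-A and 1 rose and 6 fell under ITF-B in TMD8 cells, with medians of -0.12, -0.26, -0.13 and -0.19 in this order. The shares called were 58.3%, 66.7%, 50% and 58.3%, near those of the brighter genes. Beside TAP1, the peptide loading factor TAPBP fell by 0.87 and 0.97 in TMD8 and by 0.32 and 0.26 in DoHH2 cells, where the calls were lost without DMSO experiment 3 of the ITF-A set (-0.25) and without ITF-B experiment 2 or DMSO experiment 1 of the ITF-B set (-0.19 to -0.17). Its relative TAPBPL fell by 0.58 and 0.64 in DoHH2 and by 0.65 and 0.70 in TMD8 cells. TAP2, whose promoter is printed above, fell by 0.42 to 0.47 in the 4 comparisons. The rise was that of the chaperone CALR (0.59 and 0.57 in DoHH2, 0.59 and 0.47 in TMD8 cells). B2M, the invariant chain of MHC class I, had no call in the 4 comparisons of treated and DMSO cells, with changes of 0.01 to 0.12. Neither had the regulator IRF1, with -0.09 to 0.09. In the DMSO sets IRF1 averaged 10.14 and 10.13 in DoHH2 and 7.81 and 7.74 in TMD8 cells. B2M averaged 13.59 and 13.66 in DoHH2 and 12.99 and 13.03 in TMD8 cells there.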

How the data were processed

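Total RNA of 24 cultures (8 groups of 3) was hybridized to Illumina HumanHT-12 v4 BeadChips on 2 chips. Intensity values were deposited by the authors for each of 47231 probes and array without detection p-values or control probes. A second table of log2 values was deposited by the authors, who per the paper's methods applied quantile normalization and ComBat, with the batch not given in the sources used here. Its 24 columns were each closest to the normalized intensities of their own array (lowest r 0.9998), and it served as an alternative.

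Intensities were corrected by normexp (offset 50), quantile normalized and put on the log2 scale in R 4.3.3 with limma 3.58.1. A linear model of all 24 arrays held the 8 groups and the chip, so that treated and DMSO arrays of an experiment, which shared a chip, were compared with a common estimate of spread. P-values were adjusted over all probes by Benjamini-Hochberg and called under 0.05. Of the probes, 30113 carry 1 gene symbol, 8 several and 17110 none, and the brightest probe of a gene on average was read. The number of arrays limits the precision: the median SE was 0.0752 within a line, 0.106 for the difference between lines and 0.0548 for DMSO cells. The script was tested on simulated data.

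Every proteasome gene was to be named. Values of every array were given for PSMB8, PSMB9, PSMB10, PSME1, PSME2, PSMB5, PSMB6 and PSMB7, for the 3 largest mean rises and falls, and for the 3 largest differences between the lines with treatment and in DMSO cells. Of each further list at most 4 genes, those with the largest called changes, were named, and TAP2, ADRM1, UBQLN1, B2M and IRF1 were added after their values were seen. The genes and lists were chosen with earlier results of these data known.

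Experiment numbers in the labels mark independent experiments. They did not enter the model above, and pairing by them was tried as an alternative, the replicate block in place of the chip. Residuals of a treated array and the DMSO array of its number correlated on average at 0.0523 (ITF-A) and 0.0605 (ITF-B) for DoHH2 and at 0.0488 and 0.0241 for TMD8, with single values of -0.0862 to 0.142 over 23615 probes. Alternatives were no background correction, an offset of 16, median scaling, the deposited log2 values, a filter on dim probes, no chip term, the replicate block, single chips, only the arrays compared, array weights, both DMSO sets as control, second probes, and leaving out each array. Promoter windows and coordinates are from RefSeq on GRCh38.p14. All 43 symbols matched RefSeq and 38 had a window, PSMB1, PSMB6, PSMB7, PSMD4 and PSMG3 being without one.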

Additional observations from a re-analysis of the deposited data

Results flagged for a closer look

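The changes of 16 proteasome genes differed between the lines by the test of the difference itself, and 10 of them with both compounds. With each compound alone 30.2% were called, beside 22.4% and 22.5% of all and 33.8% and 34.1% of the brighter genes. Shares of all genes called with either or with both compounds were not computed. All values are log2 changes in TMD8 minus those in DoHH2 cells. With ITF-A they were 0.69 for PSMB10, 0.65 for PSME3, 0.65 for PSMA3, 0.56 for PSMB9, 0.51 for PSMD8, 0.47 for PSMA5, 0.45 for PSME2, 0.43 for PSMG3, 0.42 for PSMB5 and 0.30 for PSME4. The differences below 0 with ITF-A were -0.40 for PSMD10, -0.36 for PSMD6 and -0.30 for PSMD5. With median scaling these 3 were -0.21, -0.12 and -0.20, and on second probes PSMD10 had -0.04 and PSMD6 -0.19, none of them called.

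With ITF-B they were 0.80 for PSMB10, 0.77 for PSMB9, 0.75 for PSME3, 0.64 for PSMA3, 0.63 for PSMG3, 0.49 for PSMB5, 0.45 for PSMA5, 0.43 for PSMC4, 0.37 for PSME2, 0.36 for PSMD3 and 0.27 for PSME4. Below 0 with ITF-B were PSMD10 with -0.32 and PSMA2 with -0.31, which with median scaling were -0.00039 and -0.01 and not called. On second probes PSMD10 had -0.25, PSMC4 0.33 and PSMB9 0.09 with ITF-B, none of them called. The largest of these, PSMB10, PSME3, PSMA3 and PSMB9, kept their call without any single array, while PSMD5, PSMA2, PSMD3, PSME4, PSMD8, PSME2 with ITF-B and PSMD10 with ITF-B lost theirs without 1 array or another. No explanation of these differences was tested.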

How the results depend on the processing

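Counts of changed genes are given in the order DoHH2 ITF-A, DoHH2 ITF-B, TMD8 ITF-A, TMD8 ITF-B, line difference with ITF-A, line difference with ITF-B and DMSO cells. Shares of all genes called were not computed for the alternatives. Leaving out 1 array gave 22 to 27, 19 to 26, 20 to 26, 19 to 24, 11 to 13, 9 to 13 and 28 to 32. With the replicate block in place of the chip they were 26, 23, 24, 22, 13, 13 and 26, a change of no count by over 1.5 times. It took the calls of PSME1 (ITF-B, DoHH2), PSMB3 and PSMC6 (ITF-A, TMD8) and PSMG2 (ITF-B, TMD8), and of PSMB4, PSMB6 and PSMB7 between DMSO cells (adjusted p = 0.15, 0.11 and 0.12), changed no other call of the 43 genes, and of the further lists took those of NFE2L1 (ITF-A, TMD8) and FOXO4 (DMSO cells) and added that of TAPBPL (DMSO cells). The line difference with ITF-B gave 8 with an offset of 16 and 21 with median scaling. Chip 1 alone, where DoHH2 cells have 1 array a group, gave 13 and 15 for DoHH2 cells and 5 and 5 for the line differences. Chip 2 alone, with 1 TMD8 array a group, gave 12 and 15 for TMD8 cells and 6 and 7 for the line differences. A lone array was there assumed to vary like the other groups.

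With median scaling the sign turned for PSMD6 with ITF-B in DoHH2 cells (-0.0095) and, between DMSO cells, for PSMB3 (-0.19), PSMB5 (-0.11), PSMC1 (-0.23), PSMC3 (-0.28), PSMD1 (-0.19), PSMD10 (-0.21), PSMD14 (-0.26), PSMG2 (-0.041), UBQLN4 (-0.25), UBA6 (-0.012) and TAPBP (-0.25). On chip 2 alone it turned for PSMA8 with ITF-A in TMD8 cells (0.0022) and the line difference of UBA1 with ITF-B (0.033). On a second probe it turned for PSMG4 (0.036 with ITF-A in DoHH2 cells, -0.053 between DMSO cells) and for PSMA6 (0.25 with ITF-A in TMD8 cells). Median scaling also took the calls of PSMB7 (ITF-B, TMD8, -0.17), of PSMB3 (TMD8, -0.16 and -0.13), of PSMC6 (ITF-A, TMD8, -0.21), of PSMD9 (ITF-B, DoHH2, 0.20) and, between DMSO cells, of PSMD2, PSMD5, PSMD9 and PSMG4 (0.01 to 0.12). The causes were not tested. ComBat on the chip, a further alternative, was not run. Of 154 called changes of the 43 genes 99 kept direction and call under every alternative except single chips and second probes, and 39 lost their call without 1 array or another. Weak calls, most of them under 0.3 on the log2 scale, are limited by 3 arrays a group.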

Other observations

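Of 11 regulators of proteasome genes 3 rose and 3 fell with each compound in DoHH2 cells, and 4 rose and 2 fell under ITF-A and 3 rose and 2 fell under ITF-B in TMD8 cells, with medians of -0.07, 0.03, 0.14 and 0.10 in this order. The shares called, 54.5% 3 times and 45.5%, were near or below the 54.5% to 55.5% of the genes above the median probe. NFE2L1, the factor that induces proteasome subunits when proteasome activity is low, fell by 0.33 and 0.46 in DoHH2 cells. In TMD8 cells it rose by 0.18 and 0.20 (limma, adjusted p = 0.047 and 0.018). These calls were lost without any 1 of 11 arrays under ITF-A (0.14 to 0.18, among them ITF-A experiments 1 and 2 and all 3 DMSO experiments), where the replicate block (adjusted p = 0.056) and median scaling (0.18, adjusted p = 0.13) took it too, and without any 1 of 3 under ITF-B (0.18 to 0.20; ITF-B experiments 1 and 3, DMSO experiment 2). NGLY1, the enzyme that strips sugars from NFE2L1, moved the other way, with rises of 0.42 and 0.35 in DoHH2 and falls of 0.27 and 0.22 in TMD8 cells. With median scaling the rises were 0.20 and 0.09 and the second fall was -0.15, none of them called, and the falls were lost without ITF-A experiment 1 (-0.21) and without ITF-B experiment 2 or DMSO experiment 1 (-0.16 to -0.12). FOXO4 rose by 0.89 and 0.99 in DoHH2 and by 1.42 and 1.19 in TMD8 cells, and STAT3 by 0.94 and 0.997 in DoHH2 and by 0.27 and 0.25 in TMD8 cells, where its calls were lost without ITF-A or DMSO experiment 1 (0.20 to 0.23) and without ITF-B experiment 2 or DMSO experiment 3 (0.19 to 0.23).

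Of the ubiquitin genes and activating enzymes 3 had a probe. UBB, which encodes a chain of ubiquitin units, rose in all 4 comparisons (0.35, 0.28, 0.32 and 0.38), the second not called with median scaling (0.20). The E1 enzymes UBA6 (0.58 and 0.55) and UBA1 (0.26 and 0.32) rose in DoHH2 cells. With median scaling UBA1 had 0.01 and 0.05, and its calls were lost without ITF-A experiment 1 or 2 or DMSO experiment 1 or 3 (0.19 to 0.27) and without ITF-B experiment 3 or DMSO experiment 2 (0.23 to 0.26).

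Other letters searched in the promoter windows, on both strands, were more frequent among the 38 proteasome genes than among all genes as well. TTCNNNGAA was found in 8 (21.1%, beside 9.38% of all genes), TGACNNNGC in 14 (36.8%, beside 16.1%), CCAAT in 18 (47.4%, beside 39.7%) and GGGCGG in 25 (65.8%, beside 48.3%).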
